A study of Mus musculus with 4 samples.

Results

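The genes of the proteasome were compared between reporter-positive cells of mouse incisor pulp and of mouse molar pulp. They were taken by name from the deposited table, as every row whose single gene symbol is a Psma, Psmb, Psmc, Psmd, Psme, Psmf or Psmg symbol with a number, leaving out the inducible subunits Psmb8, Psmb9 and Psmb10, which are described apart. This gave 45 of 24216 rows. All 45 carried the status of a completed test, and 44 reached an FPKM (sequenced fragments scaled by transcript length and library depth) of at least 1 in either tissue.

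The cells came from XLacZ4 mice, a line whose LacZ reporter is known to be active in pericytes and vascular smooth muscle cells, which the labels do not state. Incisor and molar pulp gave 2 libraries each, both from fresh cells that a fluorescent beta-galactosidase substrate (FDG) marked and a sorter collected. Age, sex and the number or pooling of animals are not given in the labels, and no label ties a library to a mouse of its own, so the q-values speak for these libraries, whose spread may be technical. The protocol text of the incisor libraries names molars, while their title, source and tissue labels name the incisor, which was followed here. The table holds 1 combined value per tissue, so no SD, n or interval can be given, and the depth is unknown. Sorting, sequencing and tooth type cannot be told apart in this design.

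The proteasome is the barrel-shaped protease that degrades proteins tagged with ubiquitin. Its core stacks outer rings of alpha subunits, which gate the entrance, on inner rings of beta subunits, some of which carry the active sites. A regulatory particle caps the core. Its base holds a ring of ATPases that unfold the substrate, and its lid removes the ubiquitin chain. Other caps, the activators encoded by Psme genes, open the core without using ATP. Since each subunit sits in the complex in a fixed proportion, the genes are usually transcribed together, largely under the factor Nfe2l1.

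Most proteasome genes had a higher value in molar, and the difference was uneven among subunits that are assembled in equal number. In the authors' deposited table, 15 of the 45 genes had q under 0.05 and a higher FPKM in molar, here named called higher in molar, and 2 were called higher in incisor. Over all 18770 tested rows these shares were 11.9% and 4.28%. The genes of the proteasome are abundant, though, and among the 5637 tested rows with an FPKM of at least 10 in a tissue, the shares were 26.8% for molar and 11.2% for incisor. The members' share in molar was 33.3%, somewhat above that second background, and the difference was not tested. This share counts all 45 members, although Psma8, Psmb11, Psme3 and Psme4 stayed under 10 FPKM in both tissues. All 15 members called higher in molar reached 10 FPKM, so the share at that minimum would be higher. At an unadjusted p under 0.05 of the authors' test the members counted 23 and 2 of 45, beside 1979 and 1059 of the 5637 abundant rows. The FPKM was higher in molar for 36 members, or 80%, and higher in incisor for 9. Of abundant rows 59.3% had the higher value in molar, and of all tested rows 61.3%. The counts for each part below have to be read beside these backgrounds.

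The median of log2((molar FPKM + 1) / (incisor FPKM + 1)), the log2 ratio below, was 0.93 over the 44 members, beside 0.14 over tested rows of at least 1 FPKM and 0.35 over those of at least 10. The molar FPKM values of the table sum to more than the incisor values, by 0.60 on the log2 scale. With molar values scaled to equal totals the median of the members was 0.33 and that of tested rows was -0.32. No called member could change direction under that scaling, since the smallest fold of a called member, 2.27, exceeds the shift. The q-values were not recomputed after scaling. Ratios between members of 1 tissue do not depend on the scaling and are given where possible.

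**Figure D1:**
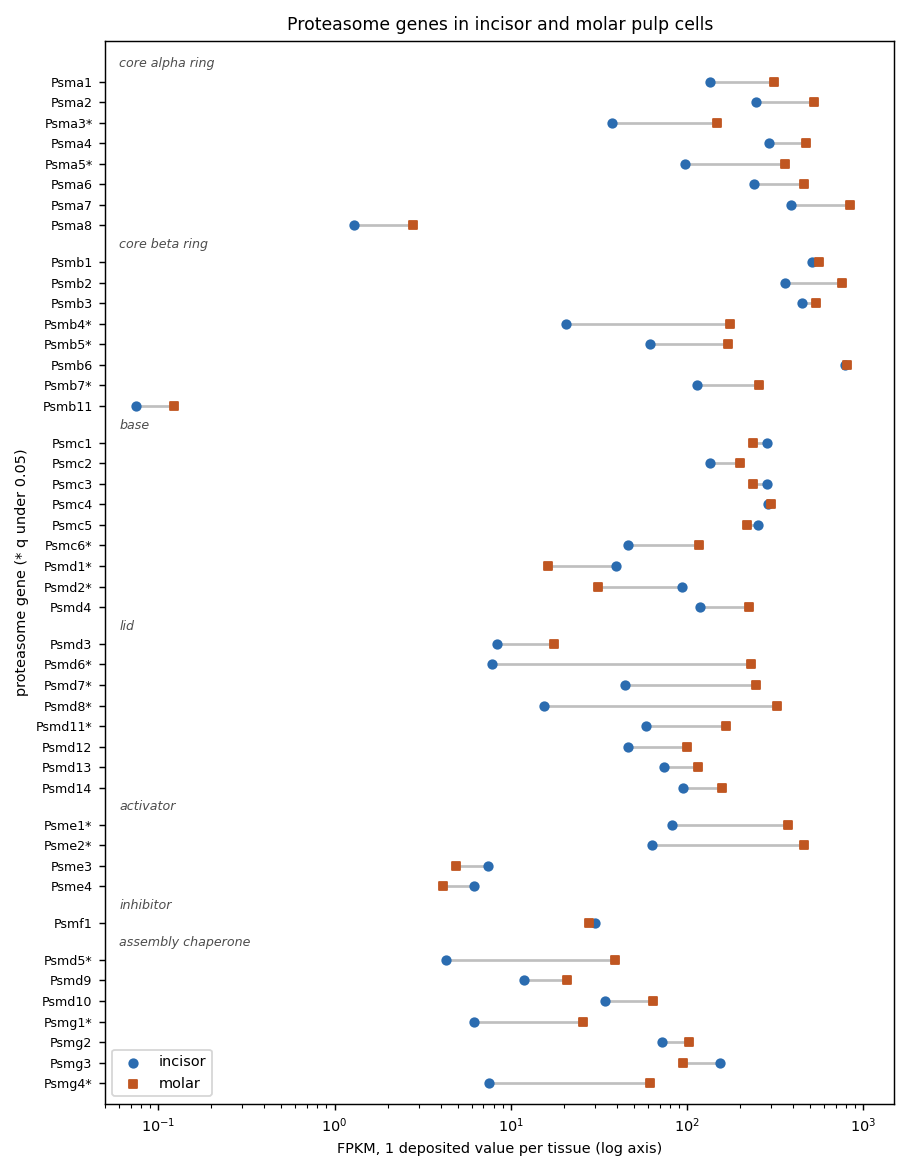
FPKM (log axis, 1 deposited value per tissue) of the 45 proteasome genes, as circles for incisor and squares for molar, ordered by part of the complex, with an asterisk at q under 0.05. The longest gaps are those of the lid genes Psmd6 (7.77 and 230.3) and Psmd8 (15.4 and 324), while Psmd1 and Psmd2 are the asterisked genes with the incisor value on the right.

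Every gene of the alpha ring had its higher value in molar, 8 of 8, with a median log2 ratio of 1.10 and a range of 0.70 to 1.96, and 2 were called higher in molar and none in incisor. At an unadjusted p under 0.05 these counts were 5 and 0. Psma3 stood at 37.3 FPKM in incisor and 148 in molar in the authors' deposited table, a 3.97-fold difference with q = 0.000664. Its row spans 1.55 times the RefSeq gene and also holds Arid4a. Psma5 stood at 96.9 and 357, 3.69-fold with q = 0.00124. Both lie partly in sequence that other genes share, as described below. Psma7 had the highest level of the ring, at 389 FPKM in incisor and 844 in molar, and did not pass (q = 0.0722). Psma1, at 134 and 311, had q = 0.0541 and carried the authors' own mark of significance, which goes slightly past 0.05. Psma6, at 239 and 462, had q = 0.472. Its row spans an interval 6.19 times the length of the RefSeq gene, which also holds Nfkbia, Ppp2r3c and Prorp. Psma8, an alpha subunit of the testis, stood at 1.29 FPKM in incisor and 2.78 in molar, far below the ring subunits of body cells.

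The beta ring carries the catalytic work, and here the genes fell apart. Psmb6, the subunit that cuts after acidic residues, had the highest level in incisor of any member, 787 FPKM, beside 812 in molar, and was not called (q = 0.881). Psmb1 (510.4 and 557 FPKM) and Psmb3 (446 and 542) were likewise not called, and the sign of their log2 ratios and of that of Psmb6 turned with equal totals. By contrast, Psmb4, a structural subunit without an active site (chromosome 3, 94884324 to 94886958, mm10), stood at 20.6 FPKM in incisor and 175 in molar in the authors' deposited table, an 8.53-fold difference with q = 0.000664. Its level was 0.0261 times that of Psmb6 in incisor and 0.216 times in molar. A gene scarce in incisor is favoured to have the larger ratio, so these levels say nothing of a balance between subunits.

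Psmb5, whose active site cuts after hydrophobic residues and is the main target of proteasome inhibitors (chromosome 14, 54614120 to 54617995), stood at 61.3 FPKM in incisor and 171 in molar, 2.79-fold higher with q = 0.0125. Psmb7, which cuts after basic residues, stood at 113 and 258, 2.27-fold higher with q = 0.0338 in the authors' deposited table. Psmb2, at 359 and 755, was not called (q = 0.0888). In all, 3 of the 8 beta genes were called higher in molar and none in incisor, or 4 and 0 at an unadjusted p under 0.05. The median log2 ratio of the 7 genes above 1 FPKM was 1.07. Psmb11, the beta subunit of the thymus cortex, was near 0 in both tissues, at 0.0751 and 0.123 FPKM.

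The base was the part in which higher incisor values were called. Of its 9 genes, 1 passed toward molar and 2 toward incisor, the same counts as at an unadjusted p under 0.05 except that 2 were then higher in molar. The median log2 ratio was -0.20, below the 0.35 of abundant rows, and -0.80 with equal totals. Psmd2, the large scaffold on which shuttle proteins dock (chromosome 16, 20651652 to 20663414), stood at 93.0 FPKM in incisor and 31.2 in molar, a 2.98-fold difference toward incisor with q = 0.0157. Psmd1, the other large scaffold (chromosome 1, 86064619 to 86139295), stood at 39.4 and 16.4, a 2.41-fold difference toward incisor (q = 0.0329 in the authors' deposited table). Leaving out Psmd2 and Psmc1, which share sequence with other genes, brought the median to 0.057.

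Of the 6 ATPases of the base 1 was called. The others had incisor and molar FPKM of 283 and 236 for Psmc1, 134 and 199 for Psmc2, 284 and 238 for Psmc3, 289 and 300.3 for Psmc4 and 253 and 219 for Psmc5. None of these 5 was called, with q between 0.252 and 0.845, and their direction depended on the scaling for Psmc2 and Psmc4. Psmc6, another ATPase of the ring, was lower than its partners in both tissues, at 46.3 and 117 FPKM, and was called higher in molar, 2.53-fold with q = 0.0274. The levels of these 6 ATPases lay closer together in molar, with an SD of log2(FPKM + 1) of 0.45 against 1.05 in incisor. Over all 9 base genes the SD went the other way, at 1.12 in incisor and 1.46 in molar. Among genes of at least 1 FPKM it was 2.43 and 2.48 for the alpha ring and 1.90 and 0.97 for the beta ring. The alpha value includes the testis gene Psma8, at 1.29 and 2.78 FPKM, while the thymus gene Psmb11 falls under the minimum. The SDs of the rings are therefore not comparable. For the lid the SD was 1.36 in incisor and 1.28 in molar, for the activators 1.87 and 3.60, and for the assembly genes 1.85 and 0.87. Psmd4, the base subunit that binds ubiquitin chains, had 118 FPKM in incisor beside 223 in molar (q = 0.121, not called).

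The lid held the largest differences. All 8 genes had the higher value in molar, 4 were called higher in molar and none in incisor (6 and 0 at an unadjusted p under 0.05), and the median log2 ratio was 1.29, or 0.70 with equal totals. Psmd6, a scaffold subunit of the lid (chromosome 14, 14112185 to 14120904), stood at 7.77 FPKM in incisor and 230.3 in molar in the authors' deposited table. This 29.6-fold difference, with q = 0.000664, was the largest of the 45 genes. Psmd8, the lid subunit that joins last in assembly (chromosome 7, 29174187 to 29180673), had 15.4 and 324 FPKM, a 21.0-fold difference with the same q.

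Psmd7, the partner of the deubiquitinase Psmd14, followed at 44.3 FPKM in incisor and 246 in molar, 5.55-fold with q = 0.000664. Psmd11, which links the lid to the base, stood at 58.7 and 165, 2.82-fold with q = 0.00799. The deubiquitinase Psmd14 itself was not called, at 95.2 and 157 (q = 0.194), and neither were Psmd3 (8.32 and 17.7), Psmd12 (46.1 and 99.8) and Psmd13 (73.6 and 115). Set against Psmd14 within a tissue, which no scaling alters, Psmd6 stood at 0.0817 times its level in incisor and 1.47 times in molar. For Psmd8 these values were 0.162 and 2.06. Psmd6 and Psmd8 have the largest ratios of the lid and low incisor values from which those ratios are formed. A change in this direction against Psmd14 is therefore favoured. Psmd6 and Psmd8 share 0% and 0.922% of their 32-base words with other genes. Which of the tissues departs from the proportions of the assembled lid cannot be read from RNA.

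**Figure D2:**
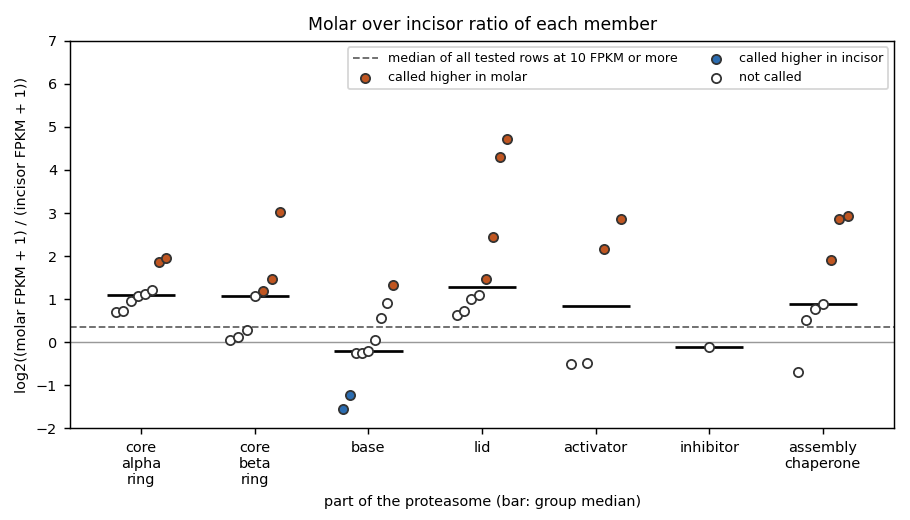
log2((molar FPKM + 1) / (incisor FPKM + 1)) of the 44 members of at least 1 FPKM, by part of the proteasome, with filled points for called genes, a bar at each group median and a dashed line at the 0.35 of all tested rows of at least 10 FPKM. The base median of -0.20 lies below that line and the lid median of 1.29 above it, with Psmd6 and Psmd8 at the top.

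Among the activators the pair that interferon induces was higher in molar, and the others were not called. Psme1 and Psme2 encode the alpha and beta chains of the activator PA28, which favours peptides for antigen presentation and whose genes lie side by side on chromosome 14. Psme1 stood at 82.0 FPKM in incisor and 372 in molar in the authors' deposited table, 4.53-fold with q = 0.000664. Its row spans 2.23 times the RefSeq gene and also holds Emc9. Psme2 stood at 63.0 and 461, 7.31-fold with the same q. Psme3, which forms a separate activator of the nucleus, had 7.44 FPKM in incisor and 4.92 in molar (q = 0.337). Psme4, a large single-chain activator, had 6.22 and 4.14 (q = 0.291). Psmf1, a regulator that inhibits the core in vitro, was not called either, at 30.0 and 27.7 (q = 0.708). In all, 2 of 4 activator genes were called higher in molar and none in incisor, or 2 and 0 at an unadjusted p under 0.05.

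The Psme2 value has to be read beside that of Psme2b, a near copy on chromosome 11. Over the 717 coding bases of Psme2, the longest GENCODE transcripts of the genes are 99.3% identical, and 65.8% of the 32-base words of the Psme2 transcript also occur in Psme2b. The stretch from coding base 314 to 403, from the middle of the reading frame, shows how little separates them. It holds 1 difference, A56G, counted from 1 at the 5′ end of the stretch with the Psme2 base first, and set in capitals:

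Psme2: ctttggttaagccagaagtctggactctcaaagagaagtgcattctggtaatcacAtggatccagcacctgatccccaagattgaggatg
Psme2b: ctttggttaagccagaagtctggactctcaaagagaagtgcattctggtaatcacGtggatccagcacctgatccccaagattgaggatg

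In the authors' deposited table Psme2b shares a row with 9930111J21Rik1 and 9930111J21Rik2 (chromosome 11, 48945352 to 48979398). That row went the other way, at 390.4 FPKM in incisor and 90.9 in molar, a 4.30-fold difference toward incisor with q = 0.000664. The sources used here do not say how reads that match both genes were assigned. The Psme2 difference is therefore uncertain in size, and whether reads moved between these rows was not tested.

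Of the 7 assembly factors 6 had the higher value in molar, and those called included chaperones of both the core and the base. Psmd5, a chaperone of base assembly (chromosome 2, 34852089 to 34870962), stood at 4.29 FPKM in incisor and 39.2 in molar in the authors' deposited table, 9.14-fold with q = 0.000664. The other base chaperones, Psmd9 (11.8 and 20.8) and Psmd10, also known as gankyrin (34.3 and 63.9), were not called. For the core, Psmg4 stood at 7.55 FPKM in incisor and 61.5 in molar, 8.14-fold with q = 0.00176. Its partner in the same chaperone dimer, Psmg3, had the opposite order of values, 154 FPKM in incisor beside 95.0 in molar (q = 0.252, not called). Psmg3 was thus 20.4 times the level of Psmg4 in incisor and 1.54 times in molar.

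Psmg1 stood at 6.17 FPKM in incisor and 25.8 in molar, 4.18-fold with q = 0.00592, and its dimer partner Psmg2 at 71.7 and 102, a value whose direction turned with equal totals, not called (q = 0.285). The ratio of Psmg2 to Psmg1 was 3.96 in molar against 11.6 in incisor. Over the 44 members the log2 ratio and the incisor level had a Spearman rho of -0.36. Since the ratio is formed from the incisor value, a partner that is scarce in incisor is favoured to have the larger ratio. The narrowing of these pairs therefore says nothing of a balance between partners. In all, 3 of the 7 assembly genes were called higher in molar and none in incisor (4 and 0 at an unadjusted p under 0.05), and the median log2 ratio was 0.88. Without Psmg3, which shares sequence, the median was 1.39.

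The makeup of the set can be given as shares of the summed FPKM of the 45 genes, which do not depend on the scaling between tissues. The core took 61.2% in incisor and 60.3% in molar. Within it the alpha ring made up 23.6% in incisor and 29.4% in molar, and the beta ring 37.7% and 30.8%. The base took 25.2% and 14.9%, and the lid 5.73% and 12.8%, so that the ratio of lid to base was 0.227 in incisor and 0.857 in molar. The naming rule leaves out the small lid subunit Sem1, listed as Shfm1, at 738 FPKM in incisor and 880 in molar. The lid genes counted here sum to 349 in incisor and 1355 in molar, so the lid share and this ratio depend strongly on that omission. The activators went from 2.60% in incisor to 7.94% in molar. This rise lies in Psme1 and Psme2, with the limits of interval and shared sequence given above, while Psme3 and Psme4 had lower values in molar. Across the 44 genes the order of levels was similar in both tissues, with a Spearman rho of 0.78 over genes that share the same libraries. The median member lay at percentile 94.3 of all tested rows in incisor and at 95.9 in molar.

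**Figure D3:**
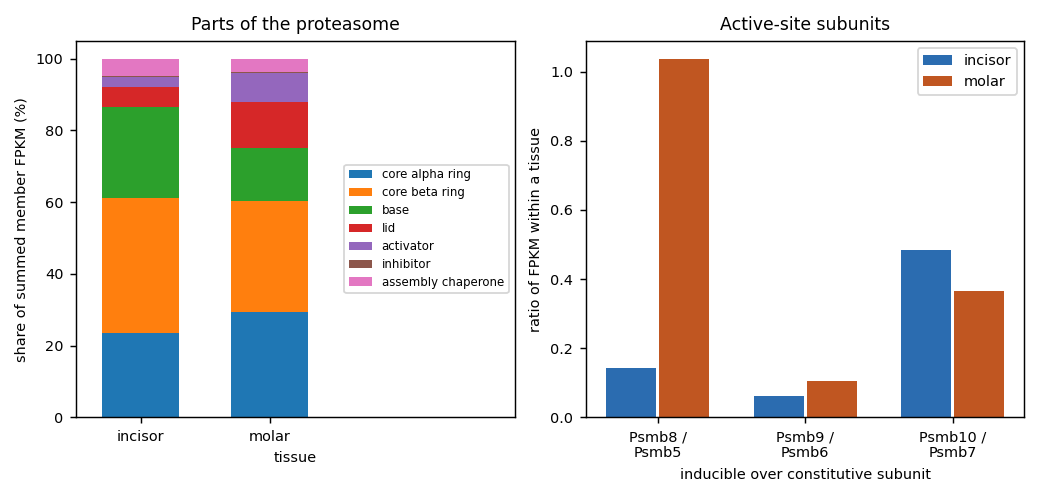
Left, the share of the summed FPKM of the 45 genes held by each part of the proteasome in each tissue, in percent. Right, the FPKM of each inducible beta subunit divided by that of the constitutive subunit it replaces, in incisor and in molar. The lid share, which leaves out Sem1, is 5.73% in incisor and 12.8% in molar, and the Psmb8 to Psmb5 ratio is 0.144 and 1.04.

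The inducible subunits Psmb8, Psmb9 and Psmb10 take the places of Psmb5, Psmb6 and Psmb7 in the immunoproteasome of interferon-exposed and blood-derived cells. Their FPKM divided by that of the subunit each replaces gave different pictures. Psmb8 stood at 0.144 times Psmb5 in incisor and 1.04 times in molar, a 7.19-fold change of the ratio. Psmb9 stood at 0.0634 times Psmb6 in incisor and 0.106 times in molar. Psmb10 stood at 0.485 times Psmb7 in incisor and 0.365 times in molar. Psmb8 passed in the authors' deposited table (8.85 and 177 FPKM, q = 0.000664, toward molar). Psmb9 (49.9 and 86.2, q = 0.210) and Psmb10 (54.9 and 93.9, q = 0.245) were not called. The 3 subunits assemble together, and the difference between their ratios was not tested.

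The genes around the immunoproteasome were given by a list of peptide loading genes. As background, 26.8% of abundant rows and 11.9% of all tested rows were called higher in molar, and 11.2% and 4.28% in incisor. Of the 10 listed genes with a row of their own, 6 and 1 had an unadjusted p under 0.05 toward molar and incisor. At q under 0.05, 5 of the 10, or 50%, were called higher in molar and none in incisor. Those called were Irf1, an interferon-induced activator (23.8 and 336 FPKM), H2-K1 (73.1 and 295), Tap2, a chain of the peptide transporter (1.59 and 7.56), and the chaperones Calr (128 and 447) and Pdia3 (16.7 and 339). The lowest ratio was that of Erap1, a peptide-trimming enzyme, not called at 6.55 and 2.81. Tap1, the partner of Tap2, was not called at 3.08 and 5.10, and Nlrc5, the activator of class I genes, was near 0 in both tissues (0.158 and 0.245).

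Copies of transcript sequence bear on several members. Pseudogenes of proteasome subunits are common, and 11 of the 45 genes share at least 20% of the 32-base words of their longest coding transcript with another GENCODE M21 gene. Of the 17 called genes 7 are among them, with shared portions of 73.3% for Psmb5, 65.8% for Psme2, 63.4% for Psma5, 44.0% for Psmd2, 26.6% for Psma3, 21.9% for Psmd11 and 21.6% for Psme1. Without those 11 genes, 9 of 34 were called higher in molar, or 26.5%, and 1 higher in incisor. The copies that hold at least 5% of a member's words number 29, of which Psme2b has a joined row in the authors' deposited table and 28 have no row under the same symbol. No word was shared for 21 members, among them Psmd6, Psmd7, Psmb4, Psmg1 and Psmg4.

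Transcript length moved with the ratio across the whole table and is therefore given beside these genes. Over 5318 tested rows of at least 10 FPKM with a GENCODE coding transcript, the log2 ratio and transcript length had a Spearman rho of -0.43 across genes, which share the same libraries, against -0.22 over the 44 members. In rows under 1200 bases the median log2 ratio was 1.10, with 41.8% called toward molar and 0.893% toward incisor. The 14 members of that length had a median of 1.15, with 7 called higher in molar. From 1200 to 2000 bases the medians were 0.92 for rows and 0.72 for 18 members, of which 4 were called higher in molar, beside 40.8% of rows. From 2000 bases the medians were -0.25 for rows and 0.89 for 12 members, of which 4 were called higher in molar and 2 in incisor, beside 16.8% and 18.5% of rows.

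Psmd1 and Psmd2, with transcripts of 3112 and 2961 bases, belong to the length class in which rows were called higher in incisor more often. Psmd6 (1387 bases), Psmd8 (1983) and Psmd5 (4397) lay above, and the ATPases Psmc1, Psmc3, Psmc4 and Psmc5 (1316 to 1819 bases) below, the median of their class. The longest annotated transcript need not be the one present, and the part of length in these differences was not tested.

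**Figure D4:**
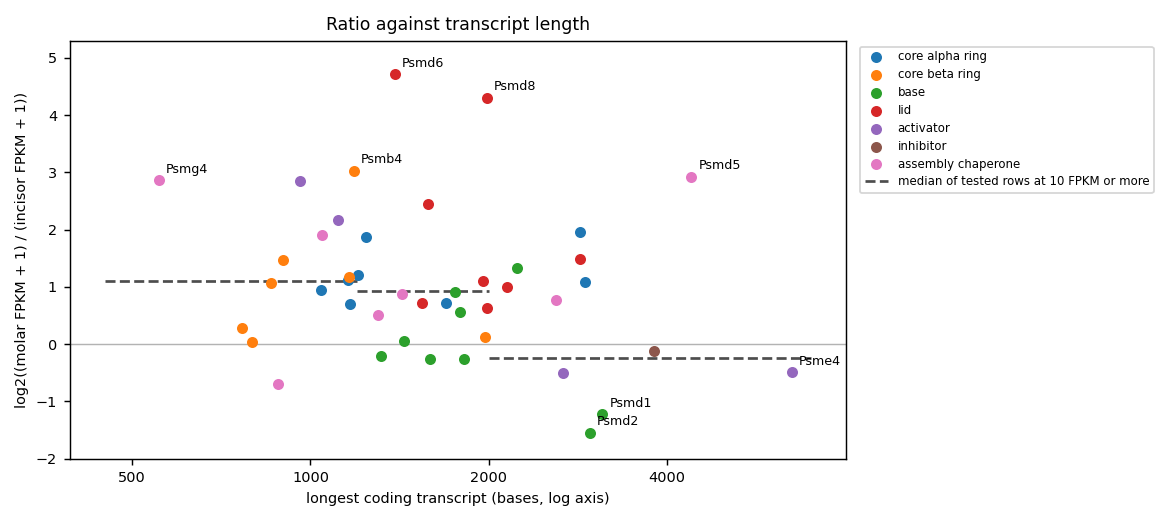
log2((molar FPKM + 1) / (incisor FPKM + 1)) of the 44 members against the length of their longest coding transcript (bases, log axis), coloured by part of the proteasome, with dashed lines at the medians of tested rows of at least 10 FPKM in 3 length classes, 1.10, 0.92 and -0.25. Psmd6, Psmd8 and Psmd5 lie above the line of their class, and Psmd1 and Psmd2 lie below.

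Nfe2l1, which raises proteasome transcription when the protease is short of capacity, had 4.85 FPKM in incisor beside 8.46 in molar (q = 0.251, not called). Its relative Nfe2l2 stood at 136 and 190 (q = 0.325). As background, 26.8% of abundant rows and 11.9% of all tested rows were called higher in molar. The regulators with a row of their own in the authors' deposited table number 7. Of these, 3, or 42.9%, were called higher in molar and none in incisor (3 and 0 at an unadjusted p under 0.05). These were Ngly1, the enzyme that removes sugars from Nfe2l1 on its way to activation (1.27 and 5.03 FPKM, q = 0.0174), the small partner protein Maff (4.42 and 20.6, q = 0.00278) and Keap1, which holds Nfe2l2 in check (6.88 and 17.7, q = 0.0474).

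Nfe2l1 and Nfe2l2 bind antioxidant response elements, searched here as TGACNNNGC on both strands in the 250 bases before each RefSeq start (GRCm38.p6). A promoter was listed for 37 members, and 5 of them held it, Psmb5, Psmb6, Psmc6, Psmd9 and Psmd12, in 12.5% of their 40 windows against 10.2% of all 32851 windows. Psmb5 and Psmc6 were called higher in molar, and the others were not called. The promoters of Psmb5 and Psmc6, of Psmb6, which holds the element and was not called, and of Psmd6, which had the largest ratio and no such element in the window, are shown with the element in capitals:

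Psmb5, chr14:54617996-54618245, minus strand: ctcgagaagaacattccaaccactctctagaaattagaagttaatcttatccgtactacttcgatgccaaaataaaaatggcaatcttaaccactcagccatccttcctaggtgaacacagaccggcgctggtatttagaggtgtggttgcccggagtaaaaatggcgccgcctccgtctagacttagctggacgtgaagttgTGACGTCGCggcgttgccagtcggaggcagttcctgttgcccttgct
Psmc6, chr14:45329574-45329823, plus strand: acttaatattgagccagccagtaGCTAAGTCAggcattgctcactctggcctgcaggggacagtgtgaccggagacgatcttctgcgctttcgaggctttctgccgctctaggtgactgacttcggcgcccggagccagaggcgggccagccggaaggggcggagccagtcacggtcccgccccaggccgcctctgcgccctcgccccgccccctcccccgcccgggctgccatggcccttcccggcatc
Psmb6, chr11:70525107-70525356, plus strand: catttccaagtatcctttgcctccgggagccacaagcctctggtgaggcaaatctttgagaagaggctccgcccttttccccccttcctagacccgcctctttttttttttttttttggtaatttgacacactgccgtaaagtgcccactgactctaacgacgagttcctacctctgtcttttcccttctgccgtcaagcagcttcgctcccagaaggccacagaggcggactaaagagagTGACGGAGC
Psmd6, chr14:14120946-14121195, minus strand: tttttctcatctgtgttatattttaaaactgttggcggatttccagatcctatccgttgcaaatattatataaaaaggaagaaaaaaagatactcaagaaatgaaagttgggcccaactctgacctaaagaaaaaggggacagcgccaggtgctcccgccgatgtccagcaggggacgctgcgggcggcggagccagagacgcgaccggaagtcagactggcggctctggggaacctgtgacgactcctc

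The match lay 47 bases before the start in Psmb5, 227 in Psmc6, where it reads on the opposite strand, and 9 in Psmb6. CCAAT boxes (CCAAT on both strands) were in 32.5% of the member windows and 33.8% of all, and the core of the interferon response element (GAAANNGAA on both strands) in 7.50% and 7.13%. These shares are close to those of all promoters. A match is no evidence of binding, and its absence says nothing of the factor.

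Partners of the proteasome outside the naming rule also differed among themselves. Adrm1, the ubiquitin receptor of the base, stood at 4.74 FPKM in incisor and 112 in molar, a 23.5-fold difference toward molar (q = 0.000664 in the authors' deposited table). Uchl5, the deubiquitinase that Adrm1 recruits, stood at 2.48 and 30.2, 12.2-fold, and the proteasome-bound thioredoxin Txnl1 at 3.20 and 54.3, 17.0-fold, both with the same q. The small lid subunit Sem1, listed under its older symbol Shfm1 (738 and 880 FPKM), and the core maturation factor Pomp (367 and 565) were not called. Usp14, a further bound deubiquitinase, was at 11.2 and 9.44. The lowest ratio was that of Zfand2a, not called at 26.7 and 9.72 (q = 0.0705). Of these and the other listed partners, 16 genes in all, 3 were called higher in molar and none in incisor, against 4 and 1 at an unadjusted p under 0.05. The 3 make up 18.75%, beside 26.8% of abundant rows and 11.9% of all tested rows. The median log2 ratio of the list was 0.29, beside 0.35 for abundant rows, and 9 of the 16 had the higher value in molar.

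Values for ubiquitin supply are given for 3 genes. Rps27a, which encodes ubiquitin fused to a ribosomal protein, stood at 10.3 FPKM in incisor and 1019.8 in molar, 99.1-fold with q = 0.000664. Its row spans chromosome 11, 29545842 to 29578352. Neither that interval nor sequence shared with other genes was examined for Rps27a, so the size of this difference is uncertain. The ubiquitin-activating enzyme Uba1 was higher in incisor, at 38.4 and 15.7 (q = 0.0332). Ubb has no usable incisor value, since the authors' deposited table marks its locus as holding too much data.

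Values for related complexes are given beside these, and their shares of called genes were near or below those of abundant rows. The COP9 signalosome and eIF3 are built on the plan of the proteasome lid, and the CCT chaperonin is another ring of unlike subunits. Of 9 signalosome genes 1 was called higher in molar and none in incisor (3 and 1 at an unadjusted p under 0.05), with a median log2 ratio of 0.41, and that gene, Cops6, stood at 35.9 and 331 FPKM. Cops2 had the lowest ratio, at 27.6 and 11.1 (q = 0.0887, not called). Of 13 eIF3 genes 3 were called higher in molar and 1 in incisor, with a median of 0.40, the former being Eif3g (48.3 and 270.1), Eif3h (311 and 1062) and Eif3m (150.1 and 369) and the latter Eif3d (235 and 98.8). Of 8 chaperonin genes 2 were called higher in molar, Cct4 (18.2 and 100.4) and Cct8 (17.4 and 118), and 1 in incisor, Cct3 (208 and 82.3), with a median of -0.30. Called toward molar and toward incisor were 11.1% and 0% of signalosome genes, 23.1% and 7.69% of eIF3 genes and 25% and 12.5% of chaperonin genes. For abundant rows these shares were 26.8% and 11.2%. Whether the proteasome differs from these complexes was not tested.

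Markers of several cell types moved between the same libraries, and fewer cells of a type cannot be told apart from less RNA per cell. Of 12 mural genes, which mark the cells XLacZ4 is known to label, 2 were called higher in molar and 4 in incisor, and their summed FPKM was 917 in incisor and 364 in molar, with none listed at 0. Of 10 endothelial genes 9 were called higher in molar (sums 21.6 and 300.4, with 1 listed at 0 in incisor). Of 10 dental epithelial genes 8 were called higher in incisor (sums 23505 and 2635, none at 0). Macrophage genes, which can bring inducible subunits with them, had 3 of 10 called higher in molar and 1 in incisor (sums 5388 and 8798, none at 0), and erythroid genes 5 of 7 called higher in molar (sums 9.91 and 232, with 1 at 0 in incisor). Early-response genes of dissociation stress had 11 of 14 called higher in molar (sums 746 and 7294). Of 10 proliferation genes 3 were called higher in incisor (sums 577 and 469). These counts stand beside 11.9% of all tested rows called higher in molar and 4.28% in incisor, or 26.8% and 11.2% of abundant rows. The part of these markers in the proteasome values was not tested.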

How the data were processed

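RNA of FDG-positive pulp cells was sequenced from 2 molar and 2 incisor libraries. Trim Galore, HISAT2 and edgeR are listed, with build mm10, in the submitters' processing notes. Which tool wrote the table, how it scaled and how it placed reads with several matches is not given in the sources used here. Per the file headers, the authors deposited 1 FPKM value per tissue, log2 fold changes, a score (the test statistic), p-values and q-values. The authors' log2 value equals log2 of molar over incisor FPKM without a pseudocount. Description labels tied the columns to the tissues.

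No count model could be fitted, and no depth or interval can be given. Calls use the authors' q under 0.05, adjusted by them over all genes. Medians use log2(FPKM + 1) and a minimum of 1 FPKM in either tissue, which understates differences of low genes. Transcript lengths and shared 32-base words came from GENCODE M21, and promoters from RefSeq GRCm38.p6. Start positions were moved by 1 base to be 1-based. Python 3.11.15 and pandas 2.3.3 were used, and the scripts were tested on simulated data. Genes were named by a rule: called members, the extremes of each group, active-site subunits and their replacements, and called or extreme genes of the lists. The other members are given by value for completeness. Outside the rule, Tap1, Nlrc5, Usp14, Pomp, Shfm1, Nfe2l1, Nfe2l2 and Ubb were named after their values were seen. Psme2b and its row, Psma6's interval and a few ratios between members were singled out after their values were seen. The members and lists were chosen with earlier results of these data known. Alternatives were other q thresholds, pseudocounts, minimums, scalings, groupings and, added after seeing the data, leaving out genes with shared sequence. Some genes of the ubiquitin list are not reported here.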

Additional observations from a re-analysis of the deposited data

How the results depend on the processing

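Of the 15 and 2 members called higher in molar and in incisor, 12 and 0 had q under 0.01, with 23 and 2 at an unadjusted p under 0.05, by the authors' test, whose tool is not given. At q under 0.1 the counts were 20 and 2, by the authors' own mark 16 and 2, and with a minimum of 10 FPKM 15 and 2. Leaving out the members that share at least 20% of their words left 9 and 1. With equal FPKM totals the median log2 ratio was 0.33 over all members, 0.50 for the alpha ring, 0.48 for the beta ring, -0.80 for the base and 0.70 for the lid, by construction of a shift common to all genes. The base median turned to 0.31 when Psmd5, Psmd9 and Psmd10 were counted with it, and to 0.057 without Psmc1 and Psmd2, which share sequence. The activator median was 2.51 with a minimum of 10 FPKM, where only Psme1 and Psme2 are left, and -0.50 without these 2 genes, so it depends on which members are counted. Counting the called numbers and the medians under every alternative, 49 values stayed within 1.5 times of the main ones and kept their sign. Some of these are among those given above. A further 9 moved by more, and 3 turned sign. No called member changed direction under any pseudocount or scaling tried, which was fixed in advance. An equal pseudocount cannot turn a sign, and the scalings shifted values by less than the smallest called fold, 2.27. This therefore says nothing of how firm the calls are. Equal totals turned the sign of 6 members and centring on all genes that of 4, all of them not called. No paired analysis was possible because the table holds 1 combined value per tissue, and for the same reason no replicate could be left out. Depth is unknown.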
